A study of Mus musculus with 4 samples.

Results

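The ADAM and ADAMTS genes encode metalloproteinases, and close relatives of them, that work at the cell surface and in the extracellular matrix. Their peaks of the histone mark H3K36me2 are described here in mouse marrow stromal progenitors grown in culture, which the labels call mesenchymal stem cells (MSCs). Members were the protein-coding genes on chromosomes 1 to 19 whose RefSeq symbol is Adam or Adamts (with or without l) followed by a number, with an optional letter after the number for Adam. This gave 58 of 20665 protein-coding genes: 34 ADAM, 19 ADAMTS and 5 ADAMTS-like genes. The study made 1 chromatin immunoprecipitation (ChIP) library with an antibody to H3K36me2 from MSCs exposed for 24 hours to melatonin at 1 µM, and another from MSCs left untreated. Each had an input library without antibody. Cells of both groups were grown in DMEM with 10% FBS, and the mouse strain, age and sex and the number of animals behind a library are not given in the sources used here. A histone mark is not expression, so the labelled cell type could not be checked against marker genes.

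ADAMs sit in the cell membrane, where those with an active protease domain release growth factors, cytokines and receptor ectodomains, a step called shedding. ADAMTS enzymes are secreted, carry thrombospondin-like repeats, and trim proteoglycans and procollagens of the matrix that MSCs and their bone and cartilage descendants build. H3K36me2, dimethylation of histone H3 at lysine 36, is a broad mark written by NSD enzymes in gene bodies and between genes, and it is known to recruit a DNA methyltransferase that acts on CG dinucleotides.

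Sequencing depth was 14180076.5 tags with melatonin and 13198427.5 without, and chromosomes 1 to 19 carried 7663 and 8325 peaks. A peak is a region, 1000 bp wide at the least, with at least 4 times the tags of the input. With 1 library per condition there is no test between conditions, and all differences below are between these 2 libraries. A gene without a peak may still carry the mark, since tags outside peaks were not analysed here.

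Of the 58 members, 10 (17.2%, beside 14.1% of all genes) had a peak in the gene or the 10 kb on either side in at least 1 list. The other 48 had none in either list. The melatonin list marked 3 members (5.17%), where it marked 9.24% of all protein-coding genes. The untreated list marked 9 members (15.5%), against 8.69% of all genes. Adam22 and Adam32 were marked in both lists (3.45% of members, against 3.79% of all genes). Adamtsl1 was marked in the melatonin list only (1.72%, against 5.44%). Adam10, Adam24, Adam30, Adam34l, Adamts6, Adamts9 and Adamts16 were marked in the untreated list only (12.1%, against 4.9%). Among genes marked in 1 list, the untreated list thus held 7 of 8 members, against 1012 of 2137 (47.4%) of all such genes. These counts depend on weak peaks, since 12 of the 16 peaks at members had a fold under 6. Such peaks are usual in these lists: only 30.1% of all melatonin and 24.2% of all untreated peaks had a fold of at least 6. At that fold the lists marked 1 and 2 members (3.77% and 3% of all genes). With 50 kb on either side they marked 11 and 15 members (20.9% and 18.9% of all genes).

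The marked members are shown first by the letters at their start sites, because distances to a start can be given only for genes in the RefSeq promoter table (GRCm38.p6). The table gave 34 windows for 32 of the 58 members, and for 4 of the 10 marked ones. Each window runs from 250 bases before to 50 bases after a start and is printed 5′ to 3′ on the gene's strand, with every CG dinucleotide in capitals. They lie at chr9:70678732-70679031 (+ strand) for Adam10, chr5:8368111-8368410 (- strand) for Adam22, chr6:92943485-92943784 (- strand) for Adamts9 and chr8:43703375-43703674 (- strand) for Adam34l.
Adam10: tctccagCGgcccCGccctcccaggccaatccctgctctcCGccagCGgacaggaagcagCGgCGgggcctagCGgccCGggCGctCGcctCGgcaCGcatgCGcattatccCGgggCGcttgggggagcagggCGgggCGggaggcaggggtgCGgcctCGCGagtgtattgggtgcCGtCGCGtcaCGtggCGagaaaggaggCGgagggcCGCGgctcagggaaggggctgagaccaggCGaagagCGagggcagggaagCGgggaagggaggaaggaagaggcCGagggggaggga
Adam22: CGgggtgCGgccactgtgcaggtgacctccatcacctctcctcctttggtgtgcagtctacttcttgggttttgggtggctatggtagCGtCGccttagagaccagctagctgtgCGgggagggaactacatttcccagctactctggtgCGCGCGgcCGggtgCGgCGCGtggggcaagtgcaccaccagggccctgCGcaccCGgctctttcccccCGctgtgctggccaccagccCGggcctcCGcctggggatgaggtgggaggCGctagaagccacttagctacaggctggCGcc
Adamts9: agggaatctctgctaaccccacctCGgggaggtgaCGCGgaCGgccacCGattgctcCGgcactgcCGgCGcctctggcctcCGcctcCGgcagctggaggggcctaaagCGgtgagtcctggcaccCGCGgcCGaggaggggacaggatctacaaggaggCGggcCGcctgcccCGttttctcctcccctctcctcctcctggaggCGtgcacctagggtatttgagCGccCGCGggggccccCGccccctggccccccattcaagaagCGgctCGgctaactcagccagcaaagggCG
Adam34l: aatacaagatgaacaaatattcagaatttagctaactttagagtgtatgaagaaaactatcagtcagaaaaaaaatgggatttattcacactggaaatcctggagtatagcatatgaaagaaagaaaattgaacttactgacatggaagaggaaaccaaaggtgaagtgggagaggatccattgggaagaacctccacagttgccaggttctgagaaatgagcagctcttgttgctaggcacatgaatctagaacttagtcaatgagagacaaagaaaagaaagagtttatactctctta
The search was for CG, which reads the same on both strands. Adam10 held 32 CG, Adamts9 25, Adam22 19 and Adam34l 0. As many CG or more were found in 12.6%, 25.5% and 39.6% of the windows of 16457 protein-coding genes for the first 3, and 95% of those windows held at least 1 CG. The 10 ADAM members of testis and epididymis with a window had a median of 1 CG (range 0 to 4), and the other 22 members a median of 24.5 (0 to 46), beside a median of 14 for all genes. None of the 34 member windows overlapped a peak of either list. That overlap was not counted over the windows of all protein-coding genes, so it is not shown to be particular to the members. The nearest peak to the printed windows was an untreated one for Adam34l (3.19 kb away), Adam10 (14.3 kb) and Adamts9 (23.2 kb), and a melatonin one for Adam22 (38.8 kb).

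**Figure D1:**
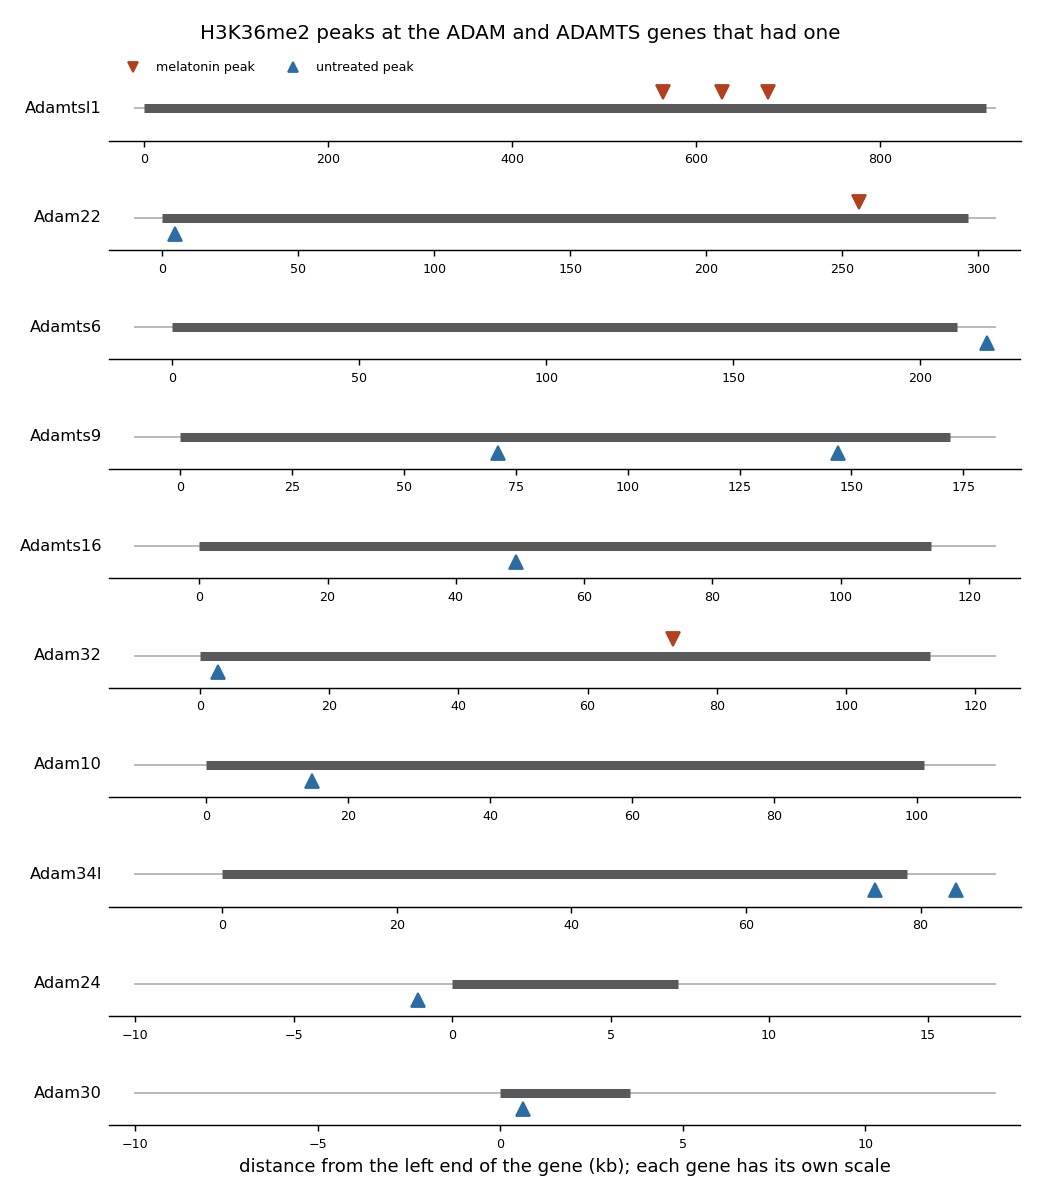
Peaks at the 10 marked members. The thick bar is the gene, the thin line the 10 kb on either side, and the x axis the distance in kb from the gene's left end in genome order, with a scale of its own for each gene; red triangles above are midpoints of melatonin peaks, blue triangles below those of untreated peaks. In Adam22 and Adam32, the genes marked in both lists, the red and blue triangles lie far apart.

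Adam22 and Adam32, the members marked in both lists, carried their peaks at different places. Adam22 encodes a protease-dead ADAM that binds secreted LGI proteins at synapses. The gene spans 296 kb on chromosome 5 (8072347 to 8368312, - strand). Its melatonin peak at 8328264 to 8329264 lay inside the gene, 39.5 kb from the start, with a fold over input of 4.97 (95% interval 1.54 to 22.7). Its untreated peak at 8076359 to 8077359 lay 291 kb from the start, 4.01 kb inside the far end, with a fold of 4.98 (1.55 to 22.8). The folds were nearly equal, and 251 kb separated the peaks. Adam32, a testis ADAM of 113 kb on chromosome 8 (24836143 to 24948918), had a melatonin peak at 24908946 to 24909946 (fold 5.51, 1.58 to 29.4). Its untreated peak at 24838488 to 24839488 (fold 4.61, 1.51 to 19.1) lay 2.35 kb inside one end of the gene, and 69.5 kb from the melatonin peak. Both genes were thus counted as marked in both libraries without any sequence called in both. Such a lack of overlap is usual in these lists: 3.86% of the melatonin and 3.77% of the untreated peaks in the windows of all protein-coding genes overlapped a peak of the other list.

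Among the 9 widely expressed proteolytic ADAMs, 0 were marked with melatonin and 1 (11.1%) without, beside 9.24% and 8.69% of all genes. Adam10 encodes the sheddase that cleaves Notch receptors and the amyloid precursor protein, and it spans 101 kb on chromosome 9 (70678944 to 70780229, + strand). Its untreated peak at 70693359 to 70694359 lay inside the gene, 14.9 kb from the start, and held 14.4 tags per 10000000, 3.9 scaled input tags and a fold of 4.87 (1.6 to 20.1). The nearest melatonin peak lay 18.4 kb outside the gene. Adam10 was also the one member with a peak called in both lists within 50 kb: 45 kb beyond the gene, melatonin 70825213 to 70826213 (fold 4.84) overlapped untreated 70824647 to 70825647 (fold 6.96). Adam8, Adam9, Adam12, Adam15, Adam17, Adam19, Adam28 and Adam33 had no peak in either list. Adam17 encodes the sheddase of tumour necrosis factor, and its nearest peaks lay 168 kb away with melatonin and 3830 kb away without. For Adam12, an ADAM of mesenchymal and muscle precursor cells, these distances were 93 kb and 300 kb.

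Besides Adam22, the group of 3 brain ADAMs without protease activity has Adam11 and Adam23, and neither was marked. Each list thus marked 1 of the 3 (33.3%), beside 9.24% of all genes with melatonin and 8.69% without. Of 21 testis and epididymis ADAMs, 1 (4.76%, beside 9.24% of all genes) was marked with melatonin, Adam32, and 3 (14.3%, beside 8.69%) without, Adam24, Adam30 and Adam32. Adam24 encodes a testis-specific ADAM of 7.12 kb on chromosome 8 (40675077 to 40682199). Its untreated peak, 1672 bp wide at 40673166 to 40674838, ended 0.239 kb outside the gene and held 23.9 tags per 10000000 (fold 5.05, 2.11 to 14.6). It was the widest member peak and had the most tags and the lowest p (Poisson p = 1.32e-12 in the authors' list), neither adjusted for width. Its p lay at the 90.9th percentile of the untreated list, counted from the highest p to the lowest, and its fold at the 54.9th. The nearest melatonin peak lay 23.9 kb from Adam24. Adam30, a testis gene of 3.54 kb on chromosome 3 (98160634 to 98164169), had an untreated peak at 98160769 to 98161769, inside the gene and 0.135 kb from one end. It held 12.1 tags per 10000000 and a fold of 4.56 (1.4 to 21.1).

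Adam34l, a gene next to the testis ADAMs of chromosome 8, was in no role list and had 2 untreated peaks. The peak at 43699181 to 43700181 lay 3.74 kb inside the start (fold 4.97, 1.44 to 26), where the gene Gm5347 overlaps it. The other, at 43708538 to 43709538, lay 5.11 kb outside the gene, before its start, and its fold of 8.72 (2.02 to 75.9) was the highest at any member, resting on 2 scaled input tags. The Adam34l model (43624889 to 43703424) encloses Adam34, whose own 10 kb window held no peak. Adam1a, Adam1b, Adam2, Adam3, Adam4, Adam5, Adam6a, Adam6b, Adam7, Adam18, Adam20, Adam21, Adam25, Adam26a, Adam26b, Adam29 and Adam39 likewise lacked a peak in both lists.

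Chromosome 8 held 15 members, most of them in 3 groups of neighbouring genes. Peaks are counted in each group's span with 10 kb on either side. Adam18, Adam3, Adam5, Adam32 and Adam9 span 415 kb, which held 1 melatonin and 1 untreated peak, both in Adam32. Adam24, Adam25, Adam20 and Adam39 span 152 kb, with 0 melatonin peaks and 1 untreated peak, which lay in the flank. Adam26b, Adam26a, Adam34 and Adam34l span 184 kb, with 0 melatonin and 2 untreated peaks, 1 of them in the flank. On chromosome 8 as a whole, 6.52% of genes were marked in each list, beside 1 and 3 of its 15 members.

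No ADAMTS gene was marked in the melatonin list (0 of 19, beside 9.24% of all genes), and 3 (15.8%, beside 8.69%) were marked in the untreated list. Adamts9 belongs to the proteoglycanases, enzymes that cleave aggrecan or versican, and it spans 172 kb on chromosome 6 (92772699 to 92944450, - strand). It had untreated peaks at 92843274 to 92844274, 101 kb from the start (fold 5.29, 1.55 to 27.5), and at 92919249 to 92920249, 24.7 kb from the start (fold 4.06, 1.43 to 14.5). The nearest melatonin peak lay 132 kb from the gene. The other 6 of the 7 proteoglycanase genes, Adamts1, Adamts4, Adamts5, Adamts8, Adamts15 and Adamts20, had no peak. Adamts4 and Adamts5 encode the main aggrecanases of cartilage. Their nearest untreated peaks lay 34.2 kb and 170 kb away, and the nearest melatonin peaks 268 kb and 83.6 kb away.

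Adamts16 and Adamts6, both on chromosome 13, were the marked genes among 6 other ADAMTS genes. That made 0 of 6 with melatonin and 2 of 6 (33.3%) without, beside 9.24% and 8.69% of all genes. Adamts16 (70727798 to 70841845, 114 kb) had an untreated peak of 1255 bp at 70776548 to 70777803, inside the gene, with 15.5 tags per 10000000 and a fold of 6.57 (2 to 33.5). The nearest melatonin peak lay 1130 kb from Adamts16, and the 500 kb on either side of the gene held no melatonin peak and no other untreated peak. Adamts6, whose product acts on fibrillin microfibrils (104286518 to 104496695, 210 kb), had an untreated peak of 1273 bp at 104503749 to 104505022, which lay 7.05 kb outside the gene (fold 5.13, 1.79 to 19.3). Adamts10, Adamts17, Adamts18 and Adamts19 had no peak. Also without a peak were the procollagen N-proteinase genes Adamts2, Adamts3 and Adamts14, the genes Adamts7 and Adamts12, whose enzymes cleave cartilage oligomeric matrix protein, and Adamts13, whose enzyme cleaves von Willebrand factor.

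The ADAMTS-like genes encode matrix proteins with the thrombospondin-like repeats of ADAMTS enzymes and no protease domain. Of the 5, 1 (20%) was marked with melatonin and 0 without, beside 9.24% and 8.69% of all genes. Adamtsl1, at 915 kb the longest member (chromosome 4, 85513852 to 86428390), had 3 melatonin peaks and no untreated peak. They lay at 86077033 to 86078033 (fold 6.96, 1.86 to 45.5), 86141174 to 86142174 (fold 4.13, 1.34 to 16.9) and 86191807 to 86192807 (fold 6.09, 1.59 to 40.3), all at least 236 kb from either end of the gene. The nearest untreated peak lay 384 kb from the gene, and with 500 kb on either side the counts were 3 melatonin peaks and 1 untreated peak. Adamtsl2, Adamtsl3, Adamtsl4 and Adamtsl5 had no peak.

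**Figure D2:**
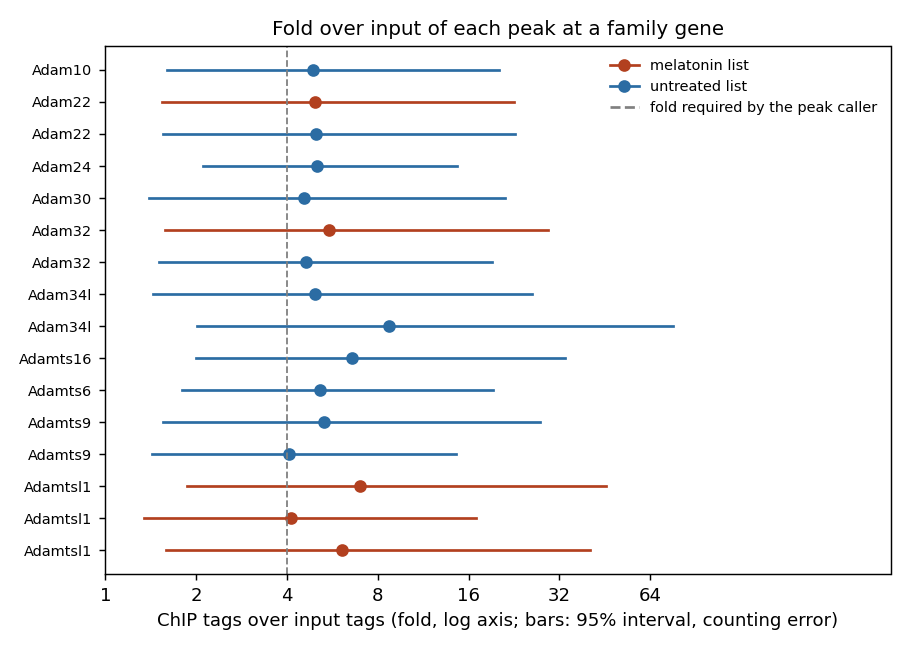
Fold over input of the 16 member peaks in order of gene name, on a log axis. Points are the authors' folds, bars are 95% intervals for counting error, red is the melatonin list and blue the untreated list; all 16 bars cross the dashed line at the required fold of 4.

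The 16 peaks at members were spread over their lists in fold, from the 2.71st percentile of the untreated list (an Adamts9 peak) to the 94th (an Adam34l peak), with group medians near those of the lists. Of these peaks, 13 lay in a gene body and 3 in a flank, and none counted for more than 1 member. Gene bodies made up 5.38 Mb of the 6.45 Mb of member windows. The smallest width of 1000 bp was found in 13 of them, beside 79.1% of the melatonin and 79.6% of the untreated list. The 5 melatonin peaks had a median fold of 5.51 (4.13 to 6.96), beside 5.11 over the list, and a median of 13.4 tags per 10000000, the same as the list. The 11 untreated peaks had a median fold of 4.98 (4.06 to 8.72), beside 4.87, and a median of 13.6 tags per 10000000, also the same as the list. Input tags ran from 2.5 to 4 and from 2 to 6.2. The lower bound of all 16 fold intervals was under the required 4. None of the 5 melatonin or 11 untreated peaks overlapped a peak of the other list, beside 6.15% and 5.62% of all peaks on these chromosomes.

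Counting error limits the comparison of the lists at these genes. The 5 melatonin peaks have a 95% Poisson interval of 1.62 to 11.7, and the 11 untreated peaks one of 5.49 to 19.7. Their ratio was 0.455 (exact interval 0.124 to 1.42), beside 0.984 (0.936 to 1.04) over the windows of all protein-coding genes, a value inside the members' interval. Beyond 10 kb the ratio moved towards 1 as the windows widened. It was 0.667 (0.314 to 1.37; 14 and 21 peaks) with 50 kb on either side and 0.873 (0.649 to 1.17; 89 and 102 peaks) with 500 kb. For gene bodies alone it was 0.625 (0.161 to 2.17; 5 and 8 peaks). Member windows held 0.775 melatonin and 1.7 untreated peaks per Mb of their 6.45 Mb, both lower than the 2.44 and 2.48 per Mb in the windows of all protein-coding genes.

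**Figure D3:**
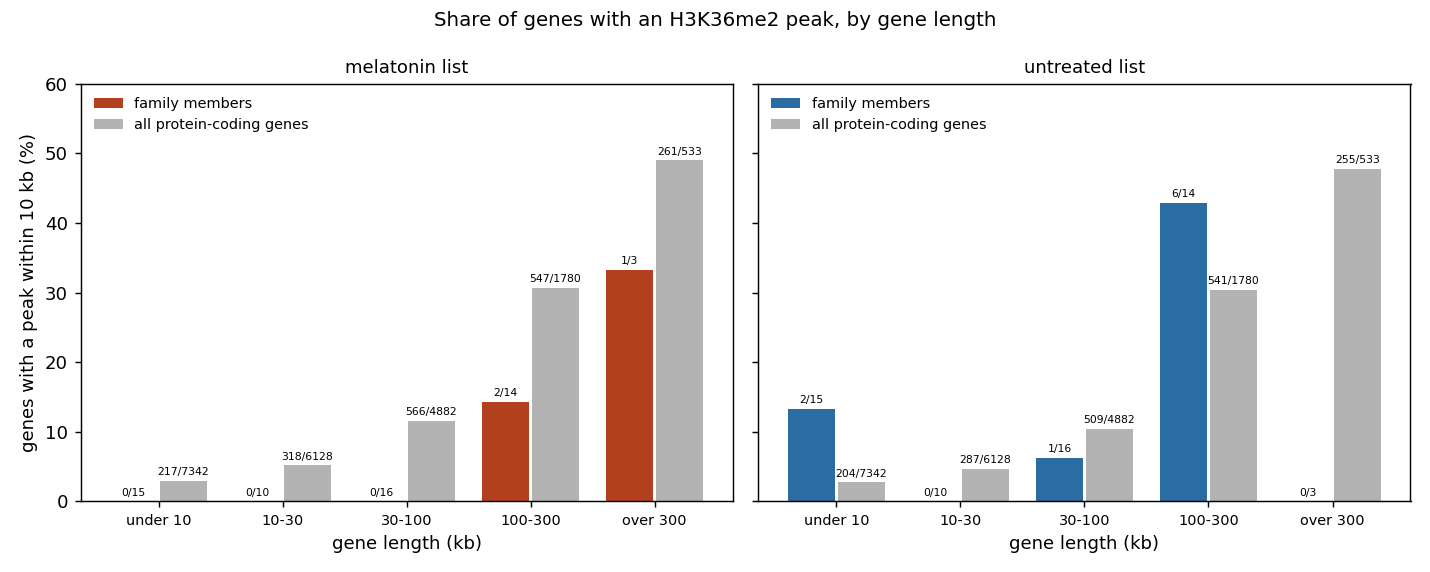
Share of genes with a peak within 10 kb, in percent, by gene length in kb, for family members (coloured) and all protein-coding genes (grey), with the melatonin list on the left and the untreated list on the right; numbers over bars are genes marked over genes in the class. Members of 100 to 300 kb were marked in 2 of 14 cases with melatonin and 6 of 14 without, where all genes of that length were near 30% in both lists.

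The share of marked genes differed with gene length and between chromosomes, so the members were also read against genes of their own length and chromosome. Members had a median length of 36.8 kb (2.27 to 915), against 17.5 kb for all protein-coding genes. Of the 17 members of at least 100 kb, 3 (17.6%) were marked with melatonin and 6 (35.3%) without, beside 34.9% and 34.4% of 2313 such genes. Of the 41 shorter members, 0 and 3 (7.32%) were marked, beside 6% and 5.45% of 18352 genes. The melatonin shares of members were below the background in both length groups, and the untreated shares were near it. When each member was given the share of all genes in its length class (limits at 10, 30, 100 and 300 kb), the mean share was 14.8% with melatonin and 14.2% without. With length class and chromosome together it was 13.5% and 12.3%, from classes of 23 genes or more. The members' own 5.17% and 15.5% stood on either side of these values. Each of these percentages rests on 3 and 9 genes, and several of the members are neighbours.

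Of the 17 members of at least 100 kb, 7 (41.2%) had a peak in either list, beside 47.2% of 2313 protein-coding genes of that length. The 10 without one were Adam23 (150 kb), Adamts18 (152 kb), Adamts20 (164 kb), Adamts2 (205 kb), Adamts3 (210 kb), Adamts19 (218 kb), Adamtsl3 (279 kb), Adamts12 (284 kb), Adamts17 (313 kb) and Adam12 (342 kb). Adamtsl3, Adamts17 and Adam12 lie on chromosome 7, where 2.07% of genes were marked with melatonin and 1.53% without. Adamts12 and Adamts20 lie on chromosome 15, where the shares were 12.4% and 10.4%, and their nearest untreated peaks lay 28.1 kb and 28.6 kb away. Adamts16 and Adamts6, marked without melatonin, are the 2 members of chromosome 13, where 14.4% and 15.1% of genes were marked.

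**Figure D4:**
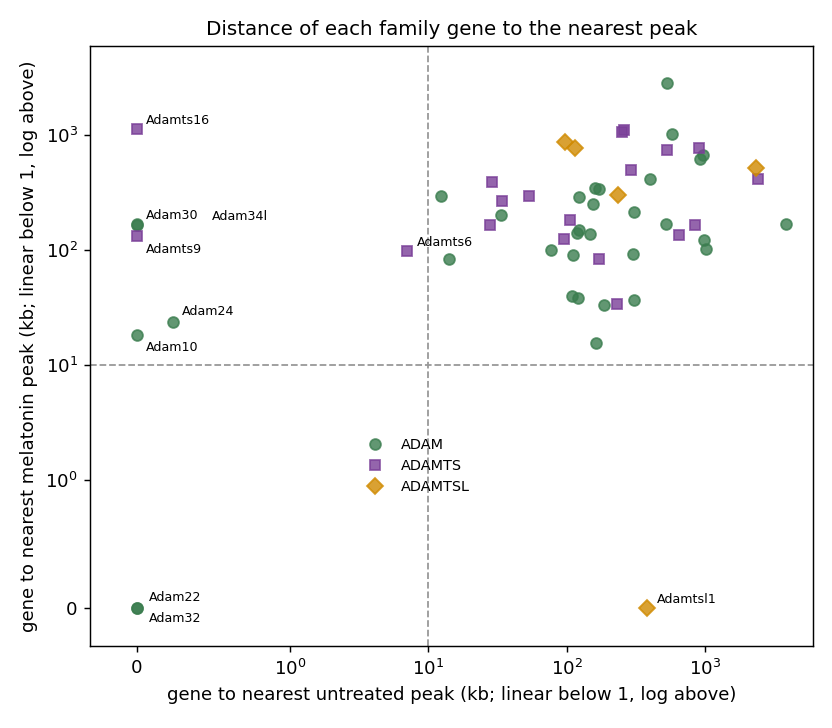
Distance in kb from each of the 58 members to its nearest untreated peak (x axis) and nearest melatonin peak (y axis), linear below 1 kb and logarithmic above; 0 means a peak inside the gene, dashed lines mark 10 kb, and symbols give ADAM, ADAMTS and ADAMTSL genes. Adam22 and Adam32 are at 0 on both axes, Adamtsl1 is at 0 on the melatonin axis only, and 7 labelled genes lie left of the vertical line only.

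By median distance, members lay nearer to a peak than all protein-coding genes did, in both lists. The median distance to the nearest peak was 168 kb with melatonin and 157 kb without, beside 236 kb and 292 kb for all protein-coding genes. Distances were taken from the gene ends, and members were longer than all genes (median 36.8 kb against 17.5 kb). They were not compared within length classes or chromosomes, so nearness is not shown to be particular to the members. Among unmarked members, the nearest miss was Adam18 with melatonin (15.7 kb) and Adam4 without (12.4 kb). The most distant were Adam8 with melatonin (2850 kb) and Adam17 without (3830 kb). More than 1000 kb lay between a member and its nearest peak in 5 cases with melatonin and 4 without. That count was not made over all genes.

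Genes of inhibitors, partners and substrates of these proteases were read the same way, in lists chosen by known function. Of 16 inhibitor and regulator genes, 2 (12.5%, beside 9.24% of all genes) had a melatonin peak and 0 (beside 8.69%) an untreated peak. The 2 were Tspan5, a tetraspanin partner of ADAM10, and Tfpi2, a protease inhibitor gene (fold 4.35 each). The inhibitor genes Timp2, Timp3, Timp4 and Reck had no peak in either list. Of 36 substrate and partner genes, 6 (16.7%) were marked with melatonin and 4 (11.1%) without, beside 9.24% and 8.69% of all genes. The highest folds were at Cdh2, the gene of N-cadherin, which ADAM10 sheds (34.8, melatonin only), Ltbp1, a matrix protein that holds latent TGF-beta (15.2 with melatonin and 5.45 without), Itgb1, an integrin subunit (12.2, untreated only), and Fbn1, the fibrillin gene (8.04, melatonin only). Of 28 related genes, mostly matrix metalloproteinases, 4 (14.3%) were marked with melatonin and 6 (21.4%) without, beside the same 9.24% and 8.69%. How many of these marked genes are neighbours was not counted. Mmp8, a collagenase gene, had peaks in both lists (10.4 and 4.56), as did Thsd4, an ADAMTS-like gene of 555 kb (6.38 and 4.83). Mmp27 was marked with melatonin only (best fold 14.3) and Mmp3 without melatonin only (5.13). The folds at these non-member genes are given without input tags or intervals. Peaks in windows of protein-coding genes had as few as 0.5 scaled input tags with melatonin and 0.4 without, so a high fold can rest on very little input.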

How the data were processed

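H3K36me2 ChIP peaks came from 1 melatonin and 1 untreated library, each called by the authors with HOMER findPeaks in histone style against its own input, without pooling, per the file headers. The files' names carry the identifiers of the input libraries, but each header names the ChIP library as the one searched for peaks and the input as its control, and the files were read so. The headers set 1000 bp windows, at least 18 tags (melatonin) or 17 (untreated), 4 times the input and p at most 1e-04. Some listed peaks held fewer tags before scaling, such as 17.4 at Adamtsl1 with melatonin and 15.4 at Adam34l without. The reason was not looked into. Tools named in the submitters' processing notes are Picard 1.126, MACS2 2.1.0 and BWA 0.7.13. For HOMER no version appears in the headers. Deposited tag columns are a signal: tags per 10000000 total tags, and ChIP and input tags with the deeper library scaled down. The deposited fold is the authors' ratio of those scaled tags, the deposited p-value is the authors' unadjusted Poisson p, and the deposited score and clonal ratio were not used in any result.

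The notes name mm39, but peaks reach 159805034 on chromosome 3 and 145328623 on chromosome 7, past the ends of both in that build. With peaks shifted in steps of 20 kb up to 200 kb, the share of midpoints inside genes of the GRCm38.p6 RefSeq table was lowest at 0 kb in both lists (29.1% and 27.9%), so coordinates were read as GRCm38. That table has no strand or exons; strand came from the RefSeq promoter table where a gene is in it.

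Overlap meant 1 bp or more of a peak in the gene or its 10 kb flanks. Intervals (95%) are exact Poisson for counts and exact binomial for ratios, treating scaled tags as counts; only counting error is covered, and without molecular identifiers reads may repeat a molecule. The counting was checked on planted peaks. Members and role lists were chosen with earlier results of these data known, and 3 of 140 listed names matched no gene. Every member with a peak is named with its peaks; of non-member lists, up to 4 genes are named by fold. Alternatives covered the flank, overlap rule, fold, p and number of peaks; leaving out Adam34l was added after seeing the data. Analyses used Python 3.11.15, pandas 2.3.3, numpy 2.4.6, scipy 1.17.1 and matplotlib 3.10.9.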

Additional observations from a re-analysis of the deposited data

How the results depend on the processing

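Across 10 alternatives, 75 of 100 values stayed within 1.5 times the main value and 25 moved further, all under a wider flank, a higher fold or the stricter p selection. Gene bodies alone, a 2 kb flank, 500 bp or the midpoint of a peak inside, p of at most 1e-05, 7663 peaks of lowest p per list, and leaving out Adam34l moved no value that far.

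With a 50 kb flank, 11 members had a melatonin peak and 15 an untreated one, 4 had both, 7 melatonin only and 11 untreated only. The peaks numbered 14 and 21, of which 1 was shared, and the melatonin density was 1.39 per Mb. Of all genes, 20.9% and 18.9% were marked at that width. Shares of all genes marked in both lists, or in a single list, are given for the main setting only. The counts of that kind in this paragraph therefore have no background. At a fold of at least 6, only Adamtsl1 (1 gene, 2 peaks) remained with melatonin and Adam34l and Adamts16 (2 genes, 2 peaks) without. None (0) had both, 2 were marked without melatonin only, and the density was 0.31 per Mb in each list. Among the 3831 peaks of lowest p per list, Adamtsl1 (1 gene, 2 peaks, 0.31 per Mb) remained with melatonin, and Adam24, Adam34l, Adamts6 and Adamts16 (4 genes, all untreated only; 4 peaks, 0.62 per Mb) without, with 0 in both, where 5.32% and 4.77% of all genes were marked. Why these counts moved was not tested beyond the fewer peaks or wider windows each setting has. The untreated list marked more members than the melatonin list in all of these settings. The settings draw on the same peaks, so they are not independent of each other, and at a fold of at least 6 the counts were only 2 and 1.

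No paired analysis was possible because each condition has 1 library and the result comes from no test. Member peaks held 17.4 to 20 ChIP tags before scaling with melatonin and 15.4 to 31.5 without, and how depth bears on the counts was not tested.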
